A study of Mus musculus with 384 samples.

Results

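Expression of the interleukin-2 receptor chains and of the STAT5 pathway, 10 genes in all, was followed through single regulatory T (Treg) cells of mouse ear skin. They were chosen by name among the 50556 gene symbols of the count matrix, and all 10 were found there: Il2ra, Il2rb, Il2rg, Jak1, Jak3, Stat5a, Stat5b, Cish, Socs1 and Il7r. The cells had been sorted on day 3 from ears treated 3 times with a topical preparation of 5% imiquimod or with its vehicle. Imiquimod is an agonist of Toll-like receptor 7 that causes a psoriasis-like inflammation in mouse skin. The study used 2 mice per treatment, and its labels give neither their age or strain nor the markers used in the sort. The 2 imiquimod plates and 2 vehicle plates each held 87 single-cell wells, 4 wells that received 10 cells and 5 wells left empty. No label ties a plate to a mouse, so the plate is the replicate here, and every p-value measures the spread between plates, which may be technical.

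Interleukin-2 is the cytokine on which Treg cells depend. Its receptor joins an alpha chain that raises affinity, CD25, to a beta chain and to a common gamma chain that is shared with the receptors for interleukins 4, 7, 9, 15 and 21. The beta and gamma chains carry the kinases JAK1 and JAK3, which phosphorylate STAT5A and STAT5B. Dimers of these factors bind the DNA motif TTCNNNGAA, and among the genes they induce are Il2ra, the inhibitors Cish and Socs1 and, in Treg cells, Foxp3, the transcription factor of the lineage. Il7r encodes the alpha chain of the interleukin-7 receptor, which signals through the same gamma chain, kinases and STAT5 and is typically low on circulating Treg cells.

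The motif was searched in RefSeq promoter windows of 300 bases, from 250 before to 50 after each annotated start. Of the 10 genes 9 had an entry, with 11 windows between them, and Il2rb was not matched. Windows of 2 genes held the motif, Cish with 2 copies and Il7r with 1. The same letters occurred in 8.30% of all 32851 windows, and 0.457% held at least 2 copies. The stretches around the matches in GRCm38.p6 are printed 5′ to 3′ with the motif in capitals, because they are the members' windows in which the STAT5 motif was found. TTCNNNGAA is a palindrome, so 1 scan covers both strands, and the copies in Cish do not overlap. The first copy in Cish begins at the annotated start and the second 11 bases after it (chr9:107296654-107296683, plus strand), while the copy in Il7r lies upstream of the start (chr15:9530000-9530028, minus strand).
Cish: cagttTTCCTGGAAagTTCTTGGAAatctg
Il7r: gttcaggagcTTCAGGGAAtaccaagatg
A match is a description of these letters and not a measured binding site.

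A single-cell well was kept if it had 500 or more detected genes and 10000 or more counts. That left 38 and 44 cells on the imiquimod plates and 62 and 58 on the vehicle plates, or 82 imiquimod and 120 vehicle cells. Kept cells held 47481 to 5946386 counts. Their median gene number was 975 and 1093 on the imiquimod plates, against 1040.0 and 1503 on the vehicle plates, and after thinning to 410000 counts it was 663.5 and 614, against 904 and 1160.0. All 9 T cell and all 6 Treg markers examined were present on plates of both treatments, and Foxp3 itself had a count in 36.8% and 31.8% of imiquimod cells and in 38.7% and 39.7% of vehicle cells. Markers of CD8 T and NK cells summed to at most 1.53 CPM (counts scaled to a common library total) on any plate, with Ncr1 and Eomes at 0. Mast cell markers summed to 4.50 and 6.42 CPM on imiquimod plates and to 272.6 and 115.6 CPM on vehicle plates, with Fcer1a, Mcpt4, Cma1 and Tpsb2 at 0 throughout. Kit, of the same list, had a count in 4.88% of imiquimod and 25.8% of vehicle cells, and Cpa3 in 0% and 3.33%. Markers of group 2 innate lymphoid cells, which also carry CD25 and the interleukin-7 receptor, summed to 1325 and 619 CPM on imiquimod plates and to 846 and 614 CPM on vehicle plates. The most often detected of them were Il1rl1 and Klrg1, which tissue Treg cells also express, in 27.2% and 17.8% of kept cells, and Il5 was at 0. Markers of gamma delta T cells summed to 10.7 and 11.3 CPM on imiquimod plates, against 41.7 and 67.1 CPM on vehicle plates, with 2 of 5, Tcrd and Trdc, at 0. Tcrg, the most often detected of this list, had a count in 8.54% of imiquimod and 19.2% of vehicle cells. Neutrophil markers summed to 54.3 and 55.5 CPM on imiquimod plates, against 120.5 and 395 CPM on vehicle plates, with 1 of 4, Retnlg, at 0. Those of macrophages and dendritic cells summed to 38.6 and 62.2 CPM on imiquimod plates and to 6.61 and 430.5 CPM on vehicle plates, with Cd209a at 0. Of this list Adgre1 had a count in 25.6% of imiquimod and 32.5% of vehicle cells. H2-Aa, an MHC class II gene, had a count in 8.54% of imiquimod and 35.0% of vehicle cells. Erythroid markers summed to 588 and 311.998 CPM on imiquimod plates and to 641 and 33.6 CPM on vehicle plates, and the haemoglobin gene Hba-a1 had a count in 43.9% of imiquimod and 9.17% of vehicle cells. B cell markers reached 2.17 and 26.5 CPM on imiquimod plates and were at 0 on vehicle plates. Keratinocyte markers summed to 1.40 and 336.7 CPM on imiquimod plates and to 2.60 and 5.42 CPM on vehicle plates. Fibroblast markers summed to 2.79 and 201.6 CPM on imiquimod plates and to 63.5 and 283.8 CPM on vehicle plates. Endothelial markers summed to 0.876 and 285.4 CPM on imiquimod plates and to 163.6 and 433.2 CPM on vehicle plates. Of these sums, those of mast cell, gamma delta T cell and neutrophil markers were lower on both imiquimod plates than on both vehicle plates. The B cell sum was higher on both imiquimod plates, and the other sums overlapped between treatments. The part of such cells in the results below was not tested.

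All 10 genes were detected, and the receptor chains were the most frequent. Among kept cells of both treatments, Il2ra had a count in 96 cells, Il2rg in 78, Il2rb in 69, Jak1 in 67, Il7r in 53, Stat5b in 46, Jak3 in 44, Cish in 41, Stat5a in 38 and Socs1 in 36. No count of Il2ra, Jak1, Stat5b, Cish, Socs1 or Il7r was found in the 20 empty wells, and such a 0 is compatible with a share as high as 15.0%. In 1 empty well Il2rb and Jak3 had 1 count each and Il2rg had 2, and Stat5a had 1 count in 1 empty well. In the single-cell wells that were not kept, 49 and 43 on imiquimod plates and 25 and 29 on vehicle plates, Il2ra was detected in 20 and each other member in 9 or fewer.

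Levels between genes were compared per length, as CPM of the plate sums per kilobase of merged exons (GENCODE M21, an older build than that of the counts). Il2rg was highest with 491 ± 70.3 CPM per kb (SD, n = 4 plates), followed by Il2ra with 291.1 ± 202.4. Il2rb reached 89.01 ± 66.2, Il7r 80.2 ± 22.5, Cish 71.9 ± 18.7, Jak1 59.4 ± 42.7, Socs1 51.8 ± 33.7, Stat5b 47.8 ± 43.7, Jak3 31.9 ± 27.8 and Stat5a 26.9 ± 13.0 CPM per kb. The ranges of mean ± SD of each pair of neighbours in this order overlapped, but the genes were measured on the same plates. Within plates, Il2rg was above Il2ra and Il2ra above Il2rb on all 4. The order of the remaining neighbours was not the same on all plates. Per cell the levels were uneven. On imiquimod plate 1 the highest cell for each gene, taken gene by gene, supplied 43.2% of the Il2ra counts, 88.9% of the Stat5a counts and 99.3% of the Jak3 counts.

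The first comparison asked how these genes differed between imiquimod and vehicle. Detection shares of 8 of the 10 were smaller on both imiquimod plates than on both vehicle plates, with the widest gap for Il2ra, and only the shares of Stat5a and Socs1 overlapped between treatments. By summed level the picture was mixed: Il2ra, Il2rb and Stat5b were lower on both imiquimod plates, Socs1 was higher on both, and the other 6 overlapped. No member passed the test of plate sums. The count of 8 stands against 42.5% of all 14462 genes tested and 57.4% of the 2487 genes detected in 15% to 50% of kept cells that were likewise lower on both imiquimod plates, so a lower share in imiquimod cells was common among genes.

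Il2ra, the CD25 chain, had a count in 26.3% and 34.1% of imiquimod cells, with 95% exact binomial intervals of 13.4 to 43.1 and 20.5 to 49.9. Vehicle cells reached 59.7% and 58.6%, with intervals of 46.4 to 71.9 and 44.9 to 71.4. The mean share was 30.2% ± 5.50 in imiquimod and 59.1% ± 0.747 in vehicle (SD, 2 plates per treatment). For each member whose plates did not overlap, an exact permutation test (two-sided) gives p = 0.33, the lowest value that this number of plates can give. The summed level, in CPM scaled by the TMM method, was 657 and 978 on imiquimod plates and 2621 and 1887 on vehicle plates, and the groups did not overlap. The log2 fold change was -1.46 ± 0.58 (SE). Its adjusted p was 0.42 by edgeR's quasi-likelihood test, with an unadjusted p of 0.0264, so Il2ra did not pass. In cells that had a count, the median level was 445 and 1709 CPM among imiquimod cells and 1506 and 1385 CPM among vehicle cells, and these ranges overlapped.

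The Il2ra values need a qualification about an overlapping gene. Gm39760, a long noncoding RNA gene of RefSeq, overlaps Il2ra and has its own row in the matrix. It was detected in 81 kept cells, and all 81 also had Il2ra counts. Its counts came to 57.7% and 42.1% of those of Il2ra on imiquimod plates and to 28.3% and 32.6% on vehicle plates, and in 12 cells both genes had the same count. How reads in the overlap were assigned is not given in the sources used here, so the reads of these genes may be shared. With both counts added, the log2 fold change was -1.27 ± 0.50 with an adjusted p of 0.42 by edgeR. Gm39760 alone had 378.8 and 411 CPM on imiquimod plates, against 742 and 615 CPM on vehicle plates.

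**Figure D1:**
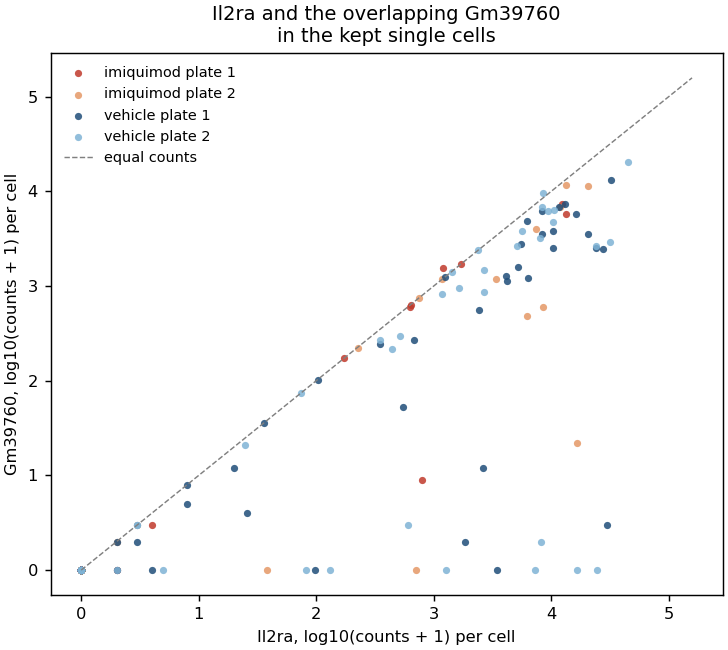
Counts of Gm39760 against counts of Il2ra in each kept single cell, both as log10(counts + 1), coloured by plate; the dashed line marks equal counts. Points on the dashed line are cells in which both genes had the same count, and no cell lies on the vertical axis above 0 because all 81 cells with Gm39760 also had Il2ra.

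Il2rb, the signalling beta chain, was detected in 28.9% and 15.9% of imiquimod cells and in 37.1% and 48.3% of vehicle cells. Its summed level was 228.8 and 122.04 TMM-scaled CPM on imiquimod plates, against 550 and 510.4 on vehicle plates. Both measures were lower on both imiquimod plates, and the log2 fold change of -1.60 ± 1.13 had an adjusted p of 0.63 by edgeR. Counts were often few: the median level in cells with a count was 2.20 and 85.2 CPM among imiquimod cells and 41.6 and 276.1 CPM among vehicle cells.

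Il2rg, the common gamma chain, was detected in 34.2% and 34.1% of imiquimod cells and in 40.3% and 43.1% of vehicle cells, so the shares did not overlap but lay close together. The summed level ran the other way, with 1860.3 and 1037 CPM on imiquimod plates and 1219 and 855 on vehicle plates, and there the plates overlapped. The log2 fold change was 0.48 ± 0.64 (adjusted p = 0.84 by edgeR).

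Cells in which all 3 receptor chains were detected numbered 4 and 2 on the imiquimod plates and 17 and 15 on the vehicle plates. That is 10.5% and 4.55% of imiquimod cells, against 27.4% and 25.9% of vehicle cells. At least 1 chain was detected in 55.3% and 54.5% of imiquimod cells and in 66.1% and 75.9% of vehicle cells. Neither measure overlapped between treatments. Both were taken without thinning, and vehicle cells had more genes even after it, as given above. The part of gene number in these shares was not tested. No share over other sets of 3 genes was computed, so the gap is not shown to be particular to the receptor chains.

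The kinase genes differed between plates of the same treatment. Jak1, whose product binds the beta chain, was detected in 13.2% and 29.5% of imiquimod cells and in 37.1% and 44.8% of vehicle cells. Its level was 57.5 and 631 CPM on imiquimod plates and 681 and 265.9 CPM on vehicle plates. The levels overlapped, and the log2 fold change was -0.46 ± 1.23. Jak3, the kinase on the gamma chain, was detected in 5.26% and 15.9% of imiquimod cells and in 25.8% and 32.8% of vehicle cells. Jak3 stood at 2.87 and 199.9 CPM on imiquimod plates, against 121.5 and 282.4 CPM on vehicle plates, and its low value came from imiquimod plate 1, where 2 cells had a count.

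The STAT5 genes lie next to each other on chromosome 11 and share sequence. Their longest transcripts have 608 windows of 50 bases in common, 15.8% of the windows of Stat5a and 11.8% of those of Stat5b, so reads confined to these windows cannot be assigned to either gene. Stat5a was detected in 13.2% and 18.2% of imiquimod cells and in 24.2% and 17.2% of vehicle cells, and its level was 244.3 and 194.1 CPM on imiquimod plates and 291.8 and 75.6 CPM on vehicle plates. Both measures overlapped between treatments. Stat5b was detected in 5.26% and 15.9% of imiquimod cells and in 29.0% and 32.8% of vehicle cells. Stat5b levels were 5.54 and 136.4 CPM on imiquimod plates and 489 and 306.6 CPM on vehicle plates, which did not overlap. The log2 fold change of Stat5b, -2.49 ± 1.65, was the lowest of the 10 and had an adjusted p of 0.59 by edgeR. Without imiquimod plate 2 it was -6.07 with an adjusted p of 0.0187 by edgeR, and there the remaining imiquimod plate takes its spread from vehicle. Without imiquimod plate 1, the plate with the lowest Stat5b level, it was -1.45 with an adjusted p of 0.61 by edgeR.

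Neither Cish nor Socs1, the inhibitors among the members, passed the edgeR test. Cish, which encodes a STAT5-induced SH2 protein that dampens cytokine and T cell receptor signals, was detected in 18.4% and 13.6% of imiquimod cells and in 21.0% and 25.9% of vehicle cells. Its level was 791 and 305.1 CPM on imiquimod plates and 485 and 376.7 CPM on vehicle plates, which overlapped. Socs1, an inhibitor of JAK kinases that interferons also induce, was detected in 18.4% and 18.2% of imiquimod cells and in 19.4% and 15.5% of vehicle cells, and these shares overlapped. Where it was detected its level was higher in imiquimod cells, with a median of 301.2 and 947 CPM, against 166.9 and 177.8 CPM in vehicle cells. The summed level was 398 and 191.8 CPM on imiquimod plates and 68.4 and 55.9 CPM on vehicle plates. The log2 fold change of 2.25 ± 1.62 had an adjusted p of 0.63 by edgeR and was the highest of the 10. DESeq2 gave 2.79 with an adjusted p of 0.0226.

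Il7r was detected in 13.2% and 18.2% of imiquimod cells and in 35.5% and 31.0% of vehicle cells. Its summed level, 419 and 296.4 CPM on imiquimod plates against 402 and 380.99 CPM on vehicle plates, overlapped and gave a log2 fold change of -0.13 ± 1.07. Fewer imiquimod cells thus had Il7r counts, and those that did had a median of 1025 and 1103 CPM, against 270.6 and 230.2 CPM in vehicle cells.

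**Figure D2:**
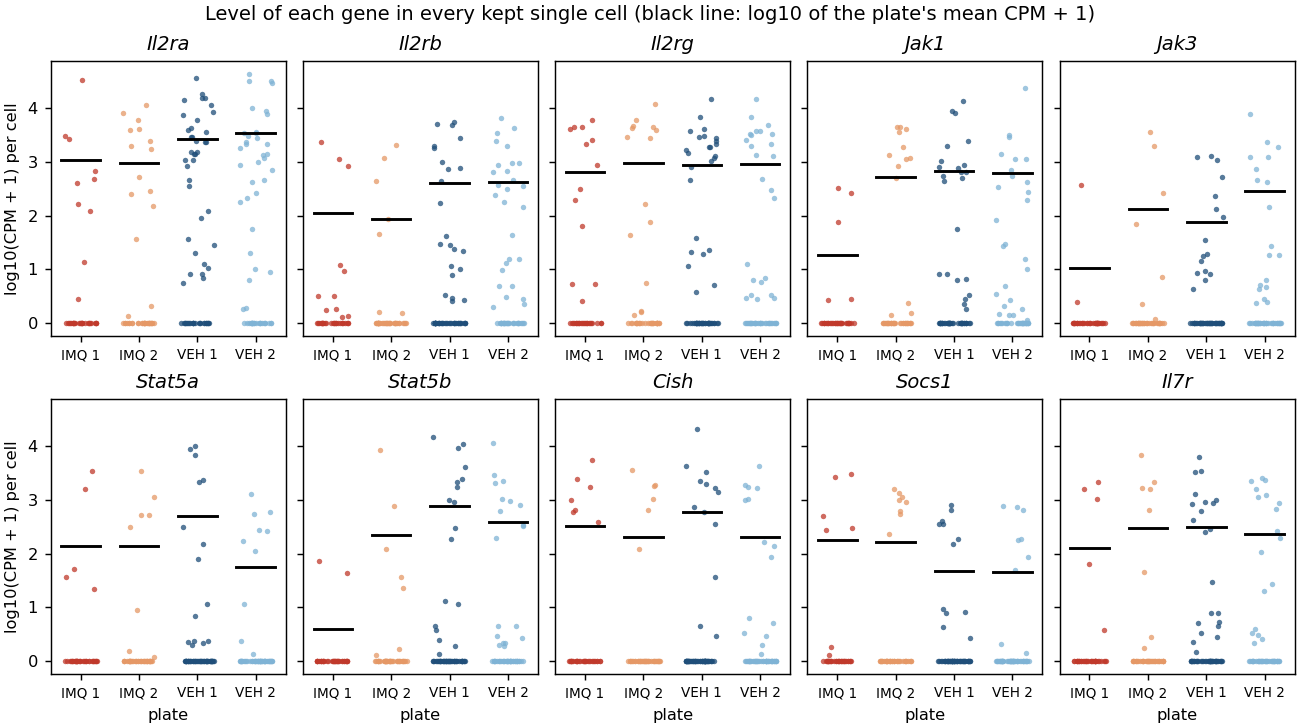
Level of each of the 10 genes in every kept single cell, as log10(CPM + 1), by plate, with imiquimod plates (IMQ) left of vehicle plates (VEH) and a black line at the plate's mean CPM. Cells without a count lie at 0; Socs1 cells reach higher levels on both imiquimod plates, while fewer imiquimod cells lie above 0 for Il2ra, Il7r and Stat5b.

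Across all genes, edgeR called 0 of 14462, or 0%, at an adjusted p under 0.05, and 0 members. At an unadjusted p under 0.05 it marked 1669 genes, or 11.5%, and 1 member, Il2ra. DESeq2 called 3740 genes, or 25.9%, and 1 member, Socs1, while limma on mean log2(CPM + 1) per cell called 0 genes. The common dispersion between plates was 2.71. The 3 members whose summed level was lower on both imiquimod plates stand against 31.1% of genes that were, and the 1 that was higher on both stands against 13.7%. The members' median log2 fold change was -0.30, beside -0.26 over all genes tested, and 4 of 10 were positive, beside 46.6% of all genes. DESeq2's size factors moved the median of all genes by 0.37 on the log2 scale. Relative to that median, Il2ra was at -1.20 with TMM and -1.17 with the size factors, Stat5b at -2.22 and -2.40, and Socs1 at 2.51 and 2.68. The log2 fold change of Il7r was -0.13 with TMM and 0.37 with the size factors, which relative to the median of all genes is 0.13 and 0.26.

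**Figure D3:**
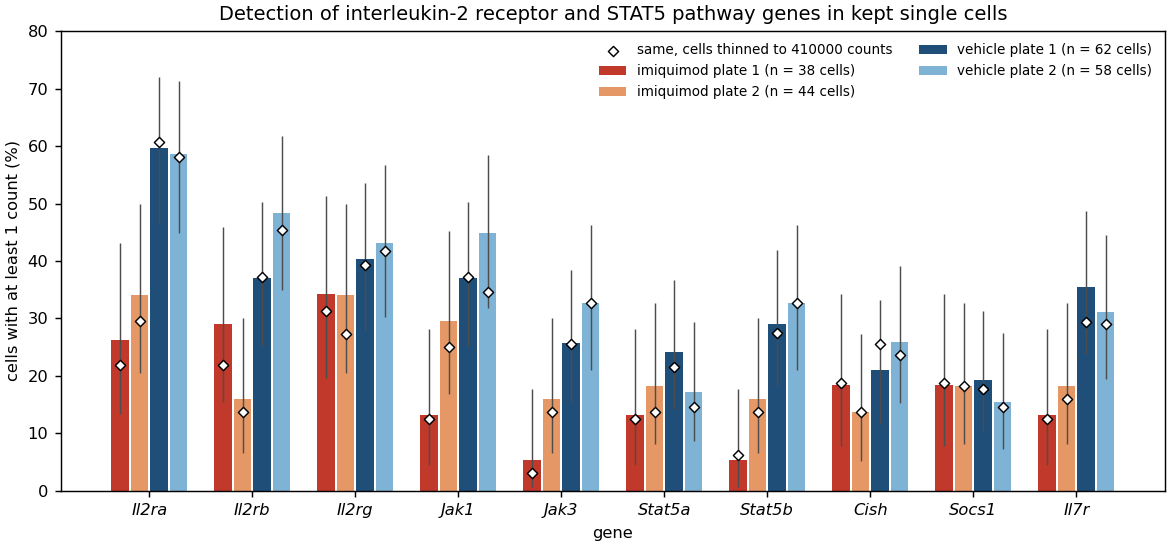
Share of kept cells with at least 1 count of each gene on the 2 imiquimod and 2 vehicle plates (bars, in percent, with 95% exact binomial intervals) and the same share after each cell was thinned to 410000 counts (diamonds). The shares on both imiquimod plates lie below those on both vehicle plates for 8 of the 10 genes, and those of Stat5a and Socs1 overlap.

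Detection followed gene yield. Across all kept cells the number of members detected went with the number of genes detected (Spearman's rho 0.66), and within plates rho lay between 0.59 and 0.72. The cells of a plate share library preparation and differ widely in depth, so this is a description. The median cell had 1 and 2 members on the imiquimod plates and 3 and 3.5 on the vehicle plates. After thinning to 410000 counts, which left out 6 and 0 imiquimod cells and 11 and 3 vehicle cells, 9 members were lower on both imiquimod plates and 1, Socs1, was higher, with 62% of genes in the same range of detection lower. Il2ra then stood at 21.9% and 29.5% in imiquimod cells and at 60.8% and 58.2% in vehicle cells.

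Within bins of gene number, pooled over plates and chosen after seeing the data, the lower share of Il2ra held for the poorer cells. Among cells with 500 or more but under 1000 genes, Il2ra was detected in 6 of 35 imiquimod cells and 18 of 46 vehicle cells. From 1000 to under 2000 genes the numbers were 12 of 38 and 22 of 32. At 2000 genes or more they were 7 of 9 and 31 of 42, or 77.8% and 73.8%, so the order turned among these few cells. Stat5b was less frequent in imiquimod in each bin, with 1 of 35, 7 of 38 and 1 of 9 imiquimod cells, against 10 of 46, 8 of 32 and 19 of 42 vehicle cells. In these bins 9, 7 and 7 of the 10 members were less frequent in imiquimod cells. The share of all genes that were likewise less frequent was not computed for the bins, so these counts are not shown to be particular to the members.

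The second comparison asked whether cells with a Foxp3 count carried the members more often. They did for 8 of the 10 on all 4 plates, and for Il2rb and Stat5b on 3. Among genes of like detection, 40.1% were more frequent in Foxp3-detected cells on all 4 plates. Foxp3-detected cells were also richer. Their median gene number was 1993, against 945 in cells without Foxp3, and after thinning it was 1489, against 640.0.

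Il2ra was detected in 65.3% of the 75 Foxp3-detected cells and in 37.0% of the others. By plate the shares were 35.7% of Foxp3-detected and 20.8% of other cells on imiquimod plate 1, and 64.3% and 20.0% on imiquimod plate 2. On vehicle plate 1 they were 75.0% and 50.0%, and on vehicle plate 2 they were 73.9% and 48.6%. The mean difference within plates was 27.4 ± 12.3 percentage points (SD, n = 4 plates). An exact permutation test that flips the signs of the 4 plates (two-sided) gives p = 0.13 for each of the 8 members above, and 4 plates allow no lower p.

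Il2rg had the widest mean difference, 29.9 ± 15.3 percentage points. It was detected in 64.3% of Foxp3-detected and 16.7% of other cells on imiquimod plate 1, in 42.9% and 30.0% on imiquimod plate 2, in 54.2% and 31.6% on vehicle plate 1, and in 65.2% and 28.6% on vehicle plate 2. Jak1 differed by 21.0 ± 14.2 percentage points, Cish by 20.6 ± 11.9, Il2rb by 17.7 ± 16.7 and Jak3 by 16.4 ± 9.41. Smaller mean differences were found for Stat5a (13.1 ± 11.7), Il7r (12.9 ± 15.1), Stat5b (10.9 ± 25.3) and Socs1 (9.06 ± 6.01). For Stat5b the plates pointed both ways: 60.9% of Foxp3-detected against 14.3% of other cells on vehicle plate 2, and 7.14% against 20.0% on imiquimod plate 2.

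Neither thinning nor a higher gene minimum made the classes alike. With cells thinned to 410000 counts, which left the gene numbers given above, the order held on every plate for 5 members, Il2ra, Il2rg, Jak1, Jak3 and Cish, beside 34% of genes of like detection. Il2rg then stood at 58.0% in Foxp3-detected cells and 22.1% in the others, and Cish at 36.2% and 11.5%. Among cells with at least 1000 genes it held for 2, Il2ra and Jak3, beside 20.5%, and the median cell there had 2702786 counts with Foxp3 and 1588781.5 without. There Il2ra was detected in 73.8% of Foxp3-detected and 45.0% of other cells, and Jak3 in 41.0% and 20.0%. Counted in bins of gene number, 4 members were more frequent with Foxp3 under 1000 genes, 4 from there to under 2000 genes and 9 at 2000 or more. For these bins no share over all genes was computed.

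**Figure D4:**
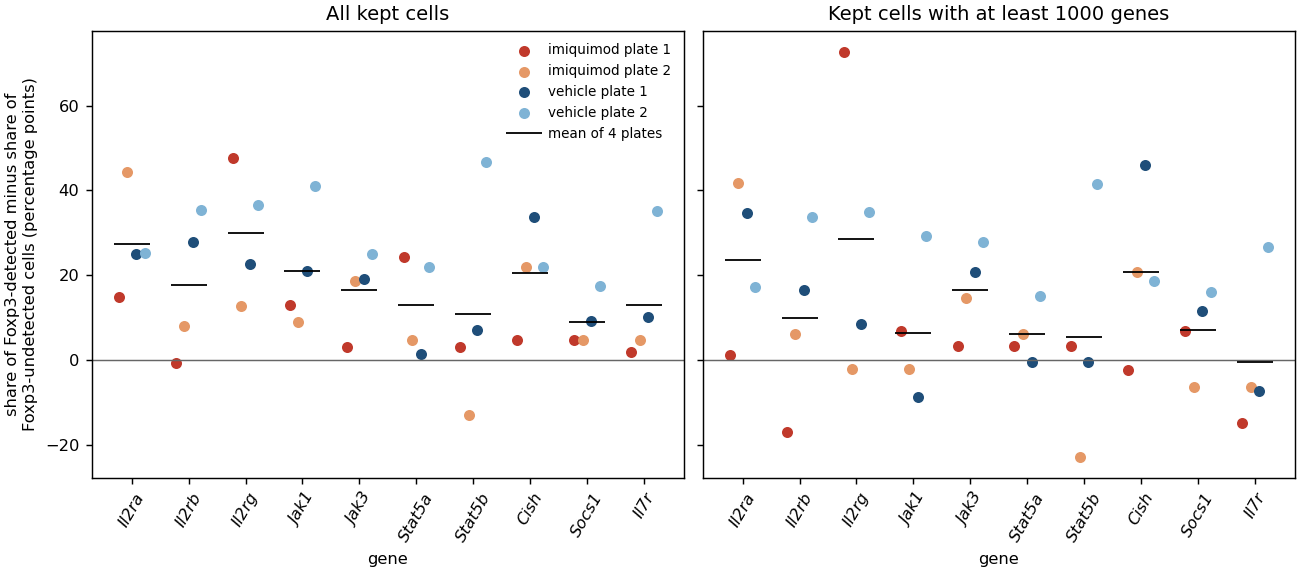
Difference in detection share between Foxp3-detected and Foxp3-undetected cells (percentage points) for each gene on each of the 4 plates, for all kept cells (left) and for kept cells with at least 1000 genes (right); horizontal marks are means of 4 plates. In the left panel 8 genes lie above 0 on all 4 plates, and in the right panel only Il2ra and Jak3 do.

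Summed levels within Foxp3 classes, tested with the plate as a term, showed no member past the threshold. EdgeR called 0 of 14603 genes, or 0%, with 2.08% of genes at an unadjusted p under 0.05, and DESeq2 called 1913, or 13.1%, and 0 members. Il2rg was the 1 member at an unadjusted p under 0.05 by edgeR, with a log2 fold change of 1.89 ± 0.90 (p = 0.0353, adjusted p = 1). Its level in Foxp3-detected cells was 3197 and 1464 CPM on imiquimod plates and 1371 and 1247 CPM on vehicle plates, against 47.5, 755, 1035 and 419.6 CPM in the other cells of the same plates. Foxp3-detected cells were higher on every plate, most of all on imiquimod plate 1. Without that plate the log2 fold change of Il2rg was 0.90 with an unadjusted p of 0.17 by edgeR, and with thinned cells it was 1.17 with an unadjusted p of 0.29 by edgeR. Il2ra, detected more often with Foxp3, had a log2 fold change of -0.01 ± 0.68 in level. Its level was 557 and 1468 CPM on imiquimod plates and 2823 and 1407 CPM on vehicle plates in Foxp3-detected cells, against 607, 655, 2399 and 3542 CPM in the others. Positive fold changes were found for 7 of 10 members, whose median was 0.38, beside 49.2% and a median of -0.02 over all genes. The class difference did not differ between treatments past the threshold for any member in the interaction test. There edgeR called 1 gene of 14603 and no member had an unadjusted p under 0.05.

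Detection of pairs of members in the same cells was also counted. In 44 of their 45 pairs the second gene, in the order of the opening list, was found in a larger share of the cells with the first than of those without it, and in 22 pairs this held on all 4 plates. Of the 96 cells with Il2ra, 58.3% had Il2rg and 50.0% had Il2rb, beside 20.8% and 19.8% of cells without Il2ra. Of the 69 cells with Il2rb, 40.6% had Cish, beside 9.77% of those without, on all 4 plates in the same direction. Stat5a and Stat5b shared 18 cells, which are 47.4% of the 38 Stat5a cells and 39.1% of the 46 Stat5b cells. The pair that ran the other way was Stat5a and Socs1, with Socs1 in 15.8% of cells with Stat5a and 18.3% of those without. Gene number per cell moved with these overlaps, as given above, and its part in them was not tested. The share of pairs of all genes that run the same way was not computed. The counts of 44 and 22 pairs are therefore not shown to be particular to the members. No member was detected in 34 kept cells.

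Wells of 10 cells carry no treatment label and entered no comparison between treatments. Il2ra, Jak1, Il7r and Foxp3 were detected in all 16 wells, Il2rb, Il2rg and Cish in 15, Stat5a in 14, Jak3 and Stat5b in 12, and Socs1 in 9. All 10 members were found in 6 wells, and the lowest number was 7. Il2ra ranged between 161.97 and 4982 CPM with a median of 1112, Il2rg between 0 and 3389 with a median of 709, and Il2rb between 0 and 3881 with a median of 385. The lowest level of Stat5b was 0 and its highest 831 CPM, with a median of 23.0, and the 4 wells on vehicle plate 1 all lay at 266.6 CPM or above. Socs1 stayed at or below 142.2 CPM. It was at 0 in all 4 wells on imiquimod plate 1 and had a mean of 36.9 CPM on imiquimod plate 2. Wells on the vehicle plates had means of 87.2 and 54.7 CPM. Single cells on the same plates had mean Socs1 levels of 175.9 and 166.1 CPM on imiquimod plates and 46.8 and 45.3 CPM on vehicle plates. The difference between wells and single cells was not tested. The mean over plates was 1508 ± 807 CPM for Il2ra in these wells (SD, n = 4 plates), beside 2015 ± 1209 CPM for the mean of single cells. In such sums, fewer cells with a transcript and less transcript per cell cannot be told apart.

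**Figure D5:**
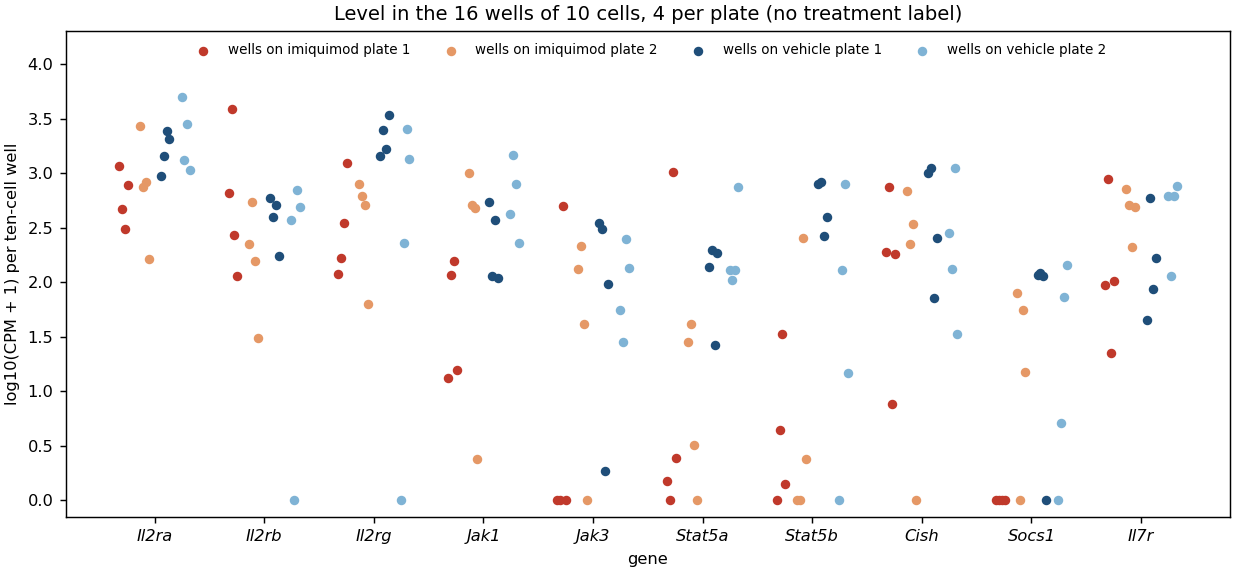
Level of each gene in the 16 wells of 10 cells, as log10(CPM + 1), 4 wells per plate, coloured by the plate on which they lie; the wells carry no treatment label. Il2ra lies above 100 CPM in all 16 wells, whereas Socs1 is at 0 in 7 and Stat5b in 4.

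By likeness to Il2ra over the 16 wells of 10 cells, centred by plate, Gm39760 came first of 987 genes with Pearson's r of 0.93, followed by Nfkbia (0.87), Nfkb1 (0.84), Dgat1 (0.83) and Osbpl8 (0.79). The median gene had 0.05. Over the kept single cells, which share library depth within a cell, Gm39760 again came first with 0.85, followed by Atxn1 (0.39), Dgat1 (0.39), Tnfrsf1b (0.36) and Cnbp (0.34), with a median gene at 0.11. Il2rb and Il2rg had 0.30 and 0.28 over single cells and 0.30 and -0.08 over the wells. Foxp3 had 0.19 over single cells and 0.30 over the wells.

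The wider pathway was read from 6 lists with 53 genes, of which 48 were tested for treatment. EdgeR called 0 of them, with 2 at an unadjusted p under 0.05, Il9r and Socs7. Their median log2 fold change was 0.56, beside -0.26 over all genes, and 30 were positive. DESeq2 called 8 of the 48, of which 6 were higher in imiquimod and 2 lower, beside 25.9% of all genes, of which 968 were higher and 2772 lower.

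Ligands were nearly absent. Il2 had a count in 0.495% of kept cells, Il9 in none, and the highest, Il4, averaged 6.77 CPM over the plates, with Tslp at 4.21 and Il7 at 1.25. Only 2 of 7 were tested, Il7 and Il15, and both fold changes were positive.

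Among 5 other receptors, 0 passed and 2 were positive. Il4ra, the interleukin-4 receptor, had 280.5 and 691 CPM on imiquimod plates and 399 and 381.4 CPM on vehicle plates. Il21r stood at 14.1 and 299.8 CPM on imiquimod plates and at 155.4 and 387 CPM on vehicle plates. Il9r, which also uses the gamma chain, had 0.0428 and 0.0322 CPM on imiquimod plates and 165.4 and 44.1 CPM on vehicle plates, and was detected in 3.96% of cells. DESeq2 called Il9r lower.

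Among 7 other JAK and STAT genes, 0 passed and 4 were positive. Stat3, which interleukin-6 family cytokines activate, had 183.9 and 1578 CPM on imiquimod plates and 1196 and 1296 CPM on vehicle plates. Stat4 had 6.20 and 275.03 CPM on imiquimod plates and 373.8 and 257.99 CPM on vehicle plates. Both were lowest on imiquimod plate 1, where Jak1, Jak3 and Stat5b were also at their lowest.

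Among 10 further inhibitors, 0 passed and 8 were positive, with a median log2 fold change of 1.27. Ptpn1, a phosphatase that acts on JAK kinases, had 648 and 111.8 CPM on imiquimod plates and 208.9 and 230.4 CPM on vehicle plates. Ptpn6, the phosphatase SHP-1, had 591 and 18.7 CPM on imiquimod plates and 97.01 and 84.1 CPM on vehicle plates. Socs4 had 542 and 48.4 CPM on imiquimod plates and 32.1 and 53.6 CPM on vehicle plates. In each case imiquimod plate 1 was highest and imiquimod plate 2 lay below the vehicle plates or, for Socs4, between them.

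Among 12 targets, 0 passed and 10 were positive, with a median of 0.83. Gzmb, the protease granzyme B, had 1513 and 922 CPM on imiquimod plates and 1009.6 and 615 CPM on vehicle plates. Foxp3 had 1636 and 1224 CPM on imiquimod plates and 992 and 387 CPM on vehicle plates, with a log2 fold change of 1.05 ± 0.72 (adjusted p = 0.61 by edgeR). The survival gene Bcl2l1 went the other way in level, with 794 and 295.3 CPM on imiquimod plates and 1313 and 868 CPM on vehicle plates, and an adjusted p of 0.69 by edgeR.

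In the PI3K and MAP kinase arm of the receptor, 0 of 12 passed and 4 were positive. Pik3cd, a catalytic subunit of PI3K, had 591 and 259.4 CPM on imiquimod plates and 111.1 and 129.4 CPM on vehicle plates. Rptor, a subunit of mTOR complex 1, had 77.4 and 17.4 CPM on imiquimod plates and 237.3 and 464 CPM on vehicle plates. Pik3r1, the regulatory subunit, had 1.18 and 112.3 CPM on imiquimod plates and 361.8 and 216.4 CPM on vehicle plates. None of these 3 passed. Of the 12 genes 3 were lower and 4 higher on both imiquimod plates, and 5 overlapped, beside 31.1% of all genes lower and 13.7% higher. Of 2 ligands 0 were lower and 0 higher, and of 5 other receptors 1 was lower and 0 higher. Of 7 other JAK and STAT genes 1 was lower and 1 higher. For the 10 inhibitors the numbers were 2 and 3, and for the 12 targets 1 and 4.

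In the Foxp3 classes 47 genes of the lists were tested. EdgeR called 0, with 1 at an unadjusted p under 0.05, and DESeq2 called 10 of the 47, of which 3 were higher in Foxp3-detected cells, beside 13.1% of all genes, of which 1013 were higher and 900 lower. Log2 fold changes of all 7 other JAK and STAT genes were positive (median 1.41), beside a median of -0.02 over all genes. Positive values were found for 0 of 2 ligands, 2 of 5 receptors, 5 of 10 inhibitors, 4 of 11 targets and 4 of 12 genes of the PI3K and MAP kinase arm.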

How the data were processed

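The protocols in the labels describe single cells sorted in lysis buffer, oligo dT priming with template switching, 24 cycles of cDNA amplification and 12 cycles after tagmentation. The authors deposited a matrix of read counts, 1 value for each gene and well. The submitters' processing notes name Trimmomatic 0.39, STAR 2.7.3a, SAMtools 1.12 and the build mm39. How reads were counted, with which annotation and strand setting, is not given in the sources used here. No molecular identifiers are mentioned, so intervals and limits (3 counts) cover counting error only.

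Kept cells were summed per plate, giving 67319087 and 99183184 counts for imiquimod and 90448592 and 99396458 for vehicle. Sums were tested with edgeR 4.0.16 (default expression filter, TMM, quasi-likelihood test, Benjamini-Hochberg over all genes, threshold 0.05), with DESeq2 1.42.0 and limma 3.58.1 as alternatives. The SE is the absolute log2 fold change over the root of F. Foxp3 classes were at least 1 count against 0. No doublet caller was run on sorted wells. No 2 kept cells had the same counts.

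All members were named. From each pathway list the text names the 3 genes of highest mean unscaled CPM, and by likeness the 5 of highest r among genes detected in at least 25% of cells; others were chosen after their values were seen. For 1 gene named by this rule, no result is reported here. The members and lists were chosen with earlier results of these data known.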

Additional observations from a re-analysis of the deposited data

Results flagged for a closer look

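In 9 of 39 groups of 4 ten-cell wells on a plate, 1 well stood apart from the other 3 by Dixon's test of the gap against the range. The rate for chance, about 1 in 20 groups, holds for normally distributed values in independent groups. These CPM values were skewed, with many at 0, and the genes of a plate share wells. The 9 groups are therefore not shown to exceed chance. On imiquimod plate 1, a well reached 3881 CPM of Il2rb with the next at 663 CPM, a well reached 502 CPM of Jak3 with the others at 0, and a well reached 1015 CPM of Stat5a with the next at 1.43 CPM. On that plate the highest Stat5b well had 32.4 CPM with the next at 3.39 CPM, and the highest Il7r well had 879 CPM with the next at 101.1 CPM. The Jak3, Stat5a and Stat5b values came from the same well of this plate. Those of Il2rb and Il7r also shared a well. On imiquimod plate 2, a well had 253.8 CPM of Stat5b with the next at 1.41 CPM. On vehicle plate 1, a well had 0 CPM of Socs1 where the others had at least 112.8 CPM. On vehicle plate 2, the highest Stat5a well had 747 CPM with the next at 128.4 CPM, and the highest Stat5b well had 793 CPM with the next at 127.1 CPM.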

How the results depend on the processing

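No paired analysis was possible because the labels number wells and not plates across treatments, so imiquimod and vehicle plates share no replicate number. Genes called for treatment numbered 3740 with DESeq2, 9 without the expression filter and 0 to 794 when 1 plate was left out (1.02% of genes tested without imiquimod plate 1 and 3.91% without imiquimod plate 2), against 0; members called numbered 1 with DESeq2 and 0 to 1 when 1 plate was left out. For Foxp3 classes DESeq2 called 1913 genes, against 0. Members more frequent with Foxp3 on all plates numbered 5 after thinning and 2 at 1000 genes, against 8. The causes were not tested. Il2ra, Il2rb, Stat5b and Socs1 kept the direction of their treatment log2 fold change in all settings, though not its size: Il2ra was -2.36 after thinning and -2.97 with limma, against -1.46, Socs1 1.04 at 1000 genes and 0.45 with limma, against 2.25, and Stat5b -3.76 at 1000 genes, -3.91 without the highest cell per plate and -1.53 with limma, against -2.49. The others turned: with limma, Il2rg to -0.70, Stat5a to -0.23 and Cish to -0.15; after thinning, Il2rg to -0.039, Stat5a to -0.89 and Cish to -0.42; without the highest cell per plate, Stat5a to -0.84 and Il7r to 0.29; Il7r to 0.043 at 1000 genes and, with DESeq2 and with its size factors, to 0.37, a scaling that moves the median of all genes by 0.37 and relative to which Il7r kept its sign (0.13 and 0.26); Jak3 to 0.27 with all wells. Leaving out plates gave -2.95 to 0.51 for Jak1, -6.02 to 0.10 for Jak3, -0.41 to 1.47 for Stat5a, -0.40 to 0.98 for Cish and -0.30 to 0.20 for Il7r. By Foxp3 class, thinning turned Il2ra to 0.044, Il2rb to -0.15 and Stat5b to 0.35; 1000 genes turned Il2ra to 0.49, Il2rb to -0.29, Jak1 to -0.25 and Socs1 to -4.8e-05; Foxp3 at 10 CPM turned Il2ra to 0.031; DESeq2 turned Il2rb to -0.18 and Jak1 to -0.012. Leaving out plates gave -0.58 to 0.40 for Il2ra, -0.42 to 0.32 for Il2rb, -0.073 to 0.30 for Jak1, -1.18 to 2.93 for Jak3 and -1.42 to 0.86 for Il7r. Of shares, Socs1 in imiquimod minus vehicle turned to -3.53 points with all wells and lay between -1.05 and 2.78 without 1 plate; with Foxp3 minus without, Il7r turned to -0.41 at 1000 genes and Stat5b lay between -0.95 and 18.9 without 1 plate. At these depths a cell without a count is not shown to lack the transcript.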
